A study of Mus musculus with 12 samples.

Results

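The paired isoform genes of cytochrome c oxidase were examined in heart ventricle RNA from C57BL/6J mice. The set was given by gene symbol, and all 9 members were found among the 78317 gene IDs counted: Cox6a2 and Cox6a1, Cox7a1, Cox7a2 and Cox7a2l, Cox8b and Cox8a, and Cox4i1 and Cox4i2. All 9 were among the 17130 genes that passed the filter on low counts. Of the 12 libraries, 6 were from offspring whose fathers were given a cryoinjury of the heart at postnatal day 1 (the injured-sire group) and 6 from offspring of uninjured males (the uninjured-sire group). The offspring's own hearts were not injured, and the labels name no transgene or deletion in any group. The labels give 3 wpp as the time of collection and also describe the animals as adult. By the labels, the injured-sire animals were 3 of each sex, and among the uninjured-sire animals 4 were male and 2 female. No sex, sire, litter or batch is tied to an animal. P-values therefore measure the spread between these animals, and litters shared within a group would make them too small. Injured-sire replicate 16 was left out of the comparison, because the submitters' labels say that it stood apart in their principal component analysis and was dropped, so 5 libraries were set against 6.

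Cytochrome c oxidase, complex IV of the respiratory chain, passes electrons from cytochrome c to oxygen and pumps protons across the inner mitochondrial membrane. Its catalytic core is encoded by the mitochondrial genome and is surrounded by nuclear subunits, some of which exist in a form of heart and skeletal muscle and a form of liver and most other tissues. In these families the muscle forms are Cox6a2, Cox7a1 and Cox8b, and their more widespread partners are Cox6a1, Cox7a2 and Cox8a. Of the muscle forms, Cox7a1 and Cox8b are also high in brown fat. The heart is known to replace the widespread forms largely by the muscle forms as it matures. The subunit 4 pair divides differently: Cox4i1 is made nearly everywhere, whereas Cox4i2 is a form of lung, pericytes and smooth muscle that is linked to oxygen sensing. Cox7a2l resembles the 7a subunits and helps to join complexes III and IV into supercomplexes, and C57BL/6 mice carry a shortened version of it.

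The promoters of the pairs are shown because the muscle and the widespread forms that could be matched differ there in their count of CpG dinucleotides. RefSeq promoters on GRCm38.p6, another build than the GRCm39 of the counts, were matched for 6 of the 9 members. The muscle form Cox6a2 was not matched, nor were Cox4i1 and Cox4i2. The 170 bases before the start of 2 muscle forms and of 3 widespread forms read as follows, 5′ to 3′ on the gene's strand, with matches to any of the motifs searched in capitals.
Cox7a1, chr7:30184001-30184170, plus strand: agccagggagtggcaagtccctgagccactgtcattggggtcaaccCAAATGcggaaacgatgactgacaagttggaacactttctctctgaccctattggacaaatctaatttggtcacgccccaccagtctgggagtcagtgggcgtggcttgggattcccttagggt
Cox7a2, chr9:79759854-79760023, minus strand: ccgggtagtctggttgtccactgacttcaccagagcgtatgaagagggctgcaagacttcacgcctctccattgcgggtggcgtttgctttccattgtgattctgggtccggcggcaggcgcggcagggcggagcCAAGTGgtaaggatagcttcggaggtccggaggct
Cox8b, chr7:140900447-140900616, minus strand: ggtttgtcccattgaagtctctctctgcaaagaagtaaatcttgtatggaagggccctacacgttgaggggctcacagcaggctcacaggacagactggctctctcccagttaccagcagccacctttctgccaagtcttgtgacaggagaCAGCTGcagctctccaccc
Cox8a, chr19:7217617-7217786, minus strand: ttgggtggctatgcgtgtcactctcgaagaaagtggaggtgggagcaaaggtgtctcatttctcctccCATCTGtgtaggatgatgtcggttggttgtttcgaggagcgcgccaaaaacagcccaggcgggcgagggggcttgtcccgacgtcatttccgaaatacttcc
Cox6a1, chr5:115348959-115349128, minus strand: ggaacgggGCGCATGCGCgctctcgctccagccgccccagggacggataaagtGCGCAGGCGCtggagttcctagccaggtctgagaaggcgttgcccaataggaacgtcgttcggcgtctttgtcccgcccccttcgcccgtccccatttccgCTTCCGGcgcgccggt

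In the 250 bases before the start, the matched muscle forms held the fewest CpG dinucleotides, 1 in Cox8b and 4 in Cox7a1, against a median of 6 over 32851 promoters. The share of G and C was also lowest in the matched muscle forms, at 47.2% in Cox8b and 51.2% in Cox7a1. It was 52% in Cox7a2l, 52.8% in Cox8a, 54.8% in Cox7a2 and 62.8% in Cox6a1. Of all promoters, 7.8% held fewer CpG dinucleotides than Cox8b and 37.7% fewer than Cox7a1. The widespread forms held 26 in Cox6a1, 14 in Cox7a2 and 11 in Cox8a, and Cox7a2l held 13. Motifs were searched on both strands of those 250 bases, and overlapping matches of different motifs were allowed. Cox6a1 held 2 matches, GCGCATGCGC and GCGCAGGCGC, to the motif of NRF1, an activator of respiratory genes, which 3.74% of all promoters hold, and 1 match to the ETS motif CCGGAAG, found in 6.91%. The E-box CANNTG, the site of myogenic and many other basic helix-loop-helix factors, occurred once in each of the other 5 promoters and in 66.2% of all promoters. None of the 6 held a match to the MEF2 motif (2.92% of promoters) or to AAGGTCA, the core bound by oestrogen-related receptors (4.08%). The count of matches did not divide muscle from widespread forms. The CpG count and, by a narrow margin, the share of G and C did in the promoters matched.

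The muscle form had the higher level in the 6a, 7a and 8 families in these ventricles, and Cox4i1 in the subunit 4 family. Levels were compared between genes only as CPM per kilobase of exon, where CPM are counts per 1000000 after scaling between libraries. On that scale Cox6a2 was highest, at 1225 ± 83.9 (SD, n = 11 libraries), followed by Cox8b at 1058 ± 119, Cox4i1 at 956 ± 55.3 and Cox7a1 at 872 ± 76.4. The order of these 4 was the same within each of the 11 libraries, although the ranges of neighbours overlapped between libraries. The widespread forms followed at a distance, with Cox7a2 at 265 ± 15.99, Cox8a at 155 ± 14.4 and Cox6a1 at 133.5 ± 27.5 CPM per kilobase. Cox8a lay above Cox6a1 in 9 of the 11 libraries only, so this pair of neighbours did not separate. Cox7a2l, at 72.6 ± 5.03, and Cox4i2, at 9.28 ± 1.33 CPM per kilobase, closed the order.

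The order depends in one place on the length used. The counted annotation gives Cox4i1 1550 exon bases, but its longest coding transcript in GENCODE M21 has 765. With the transcript length Cox4i1 stood at the top of the order, at 1938 ± 112 CPM per kilobase, above Cox6a2 at 1225, and the other 8 members kept their order. This alternative was chosen after seeing the data.

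**Figure D1:**
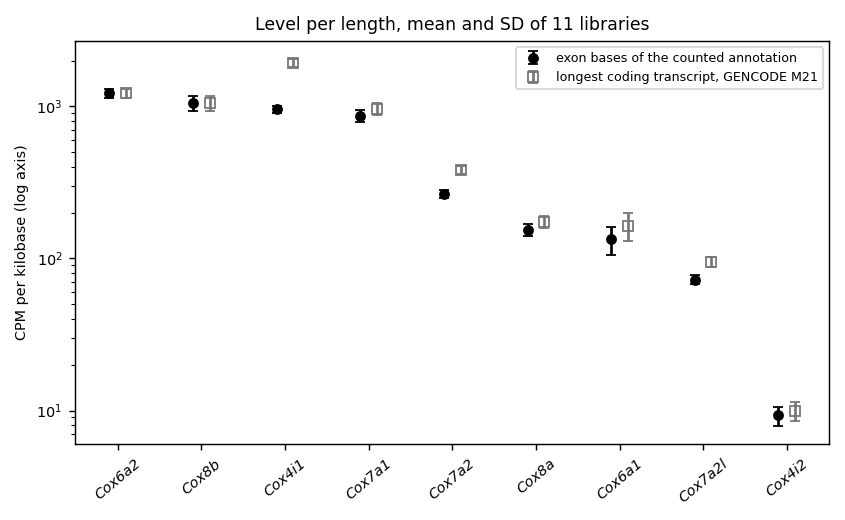
Level per length of the 9 genes on a log axis, as mean and SD of 11 libraries, with the exon bases of the counted annotation (filled circles) or the longest coding transcript (open squares). Cox6a2, Cox8b, Cox4i1 and Cox7a1 lie at 872 to 1225 CPM per kilobase of exon, Cox4i2 at 9.28, and the choice of length moves Cox4i1 most.

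None of the 9 genes was called different between the offspring of injured and of uninjured males. Of 17130 genes tested, 0.105% (0.0525% higher and 0.0525% lower) were called at an adjusted p below 0.05 (edgeR quasi-likelihood test, Benjamini-Hochberg adjustment), and of the 9 members 0 were called. At an unadjusted p below 0.05 stood 8.96% of all genes and 0 of the 9 members, and the DESeq2 Wald test and limma voom called 0 members as well. Fitted differences were above 0 for 3 members and below 0 for 6, against 50.1% above and 49.9% below 0 among all genes, with a median log2 fold change of -0.04 against 0.0002 over all genes tested. The 3 muscle forms were all on the lower side, and so were 3 of the 6 other members. The groups overlapped for all 9 members, while they did not overlap for 1.06% of all genes tested (0.414% higher and 0.642% lower).

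**Figure D2:**
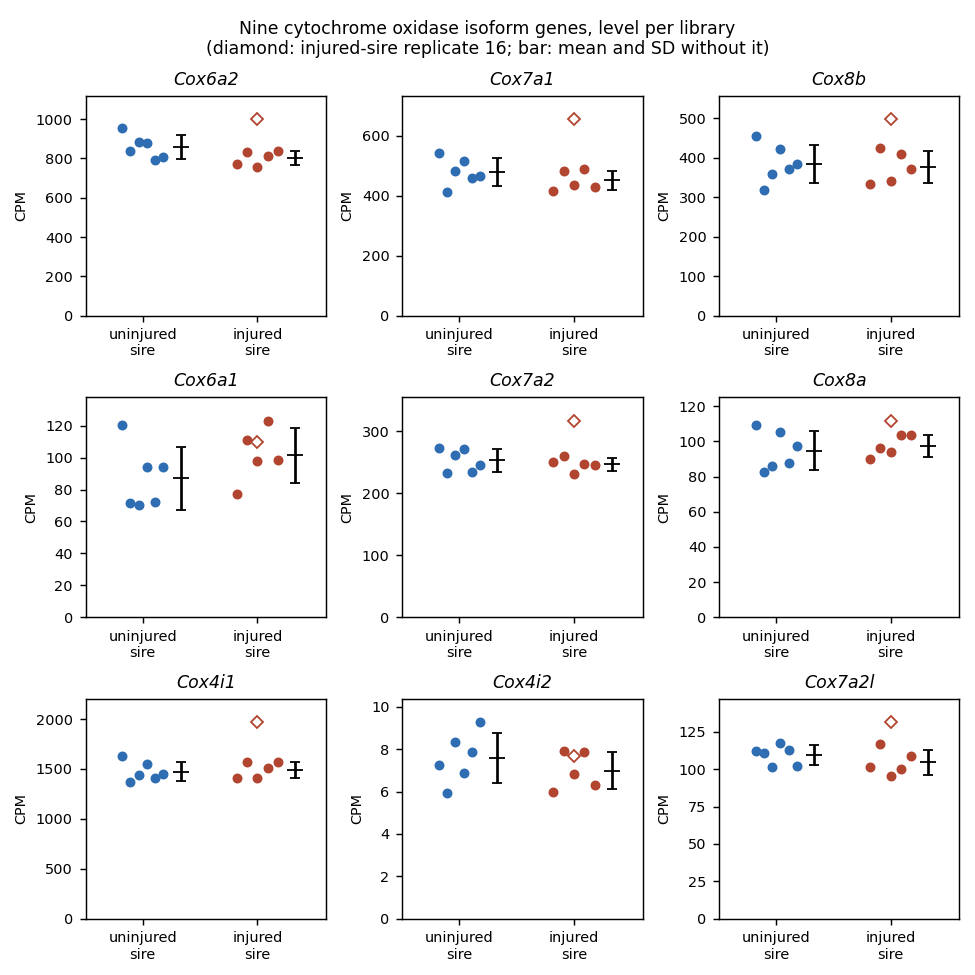
CPM of each of the 9 genes in every library, with uninjured-sire libraries in blue, injured-sire libraries in red and injured-sire replicate 16 as an open diamond. Bars show the mean and SD without replicate 16, the groups overlap in all 9 panels, and the diamond is the highest point for 7 genes.

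Cox6a2 is the muscle form of subunit 6a, a small membrane subunit that takes part in regulating the enzyme (chromosome 7, 127804607 to 127805559, minus strand, GRCm39). Its levels were 771, 831, 756, 812 and 838 CPM in injured-sire replicates 12, 13, 14, 15 and 17, and 789 to 956 CPM with a median of 859 in the uninjured-sire libraries. The injured-sire libraries lay in the lower part of the uninjured-sire range or, for replicates 12 and 14, below it. The means were 801.5 ± 36.5 CPM (SD, n = 5) and 859 ± 60.5 CPM (SD, n = 6). The fitted log2 difference was -0.10 (SE 0.0541), with the smallest p among the members (adjusted p = 0.626 by edgeR).

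Cox6a1, its widespread partner (chromosome 5, 115483701 to 115487040, minus strand), varied most between animals. Its levels were 76.9, 111, 97.8, 123 and 98.8 CPM in injured-sire replicates 12, 13, 14, 15 and 17. The uninjured-sire replicates 18 to 23 had 121, 71.7, 70.2, 93.9, 72.2 and 94.0 CPM. Each group thus held both low and high libraries, and the highest and lowest of the 11 differed 1.75-fold. The means of 102 ± 17.3 CPM (SD, n = 5) and 87.1 ± 19.8 CPM (SD, n = 6) went with the largest fitted difference of the 9 members, at 0.22 on the log2 scale (SE 0.170, adjusted p = 0.779 by edgeR). Of the 50-base words of its transcript 12.3% also occur in a processed pseudogene with 0 counts in the 12 libraries, and multi-mapping reads were not counted, so its level is uncertain.

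The spread of Cox6a1 exceeded that of the other nuclear complex IV subunits at comparable or higher counts. Its coefficient of variation over the 11 libraries was 20.6%, where counting alone gives 1.71%. The 7 other nuclear subunits with more than 100 CPM, such as Cox5a and Cox6b1, had 5.43% to 8.48%, and Cox6a2 had 6.85%. Among the 12454 genes compared for likeness, the one whose log2 CPM followed Cox6a1 most closely over the 12 libraries was Cidea, a lipid droplet gene characteristic of brown fat (Pearson r = 0.954, and 0.963 without replicate 16), and next Rab5if (r = 0.938). These correlations describe 12 libraries that share tissue, preparation and scaling.

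Brown fat transcripts were present in all 12 ventricle libraries and at very different levels. Cidea stood at 39.95, 90.0, 67.6, 98.5 and 73.0 CPM in injured-sire replicates 12, 13, 14, 15 and 17, at 66.9 in replicate 16, and at 27.7 to 87.3 CPM in the uninjured-sire group. Ucp1, the uncoupling protein that defines brown fat, ran from 1.84 CPM in uninjured-sire replicate 20 to 205 CPM in injured-sire replicate 15. Cidea still stood at 27.7 CPM in replicate 20. Over the 12 libraries the highest and lowest were 111-fold apart for Ucp1 but only 3.56-fold for Cidea. How much of the Cidea signal came from brown fat was not tested. The 4 libraries lowest in Cidea, replicates 12, 19, 20 and 22, were also the 4 lowest in Cox6a1, and 3 of the 4 highest in Cidea were among the 4 highest in Cox6a1. These matches restate the likeness by which Cidea was picked. The 12 brown fat markers, some of which heart muscle also expresses, summed to 1477 to 1985 CPM in the injured-sire and 1235 to 1838 CPM in the uninjured-sire libraries. Cox7a1 and Cox8b were kept out of this list because they are also high in brown fat. The part of brown fat in their levels was not tested. At most 2 of the 12 markers were at 0 in any library. Of the 11 tested, 10 were higher in the injured-sire group and 1 lower (median log2 fold change 0.65), and 0 were called (edgeR). A covariate that shifts with group cannot separate brown fat content from sire group. The part of brown fat in the Cox6a1 values was not tested. With the mean log2 CPM of these markers as a covariate, the log2 fold change of Cox6a1 was 0.0009 ± 0.104 (SE, adjusted p = 0.999 by edgeR). In the same fit Cox7a1 was at -0.15 (adjusted p = 0.515) and Cox8b at -0.15 (adjusted p = 0.545), so that 2 members had an unadjusted p below 0.05 and 0 were called.

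**Figure D3:**
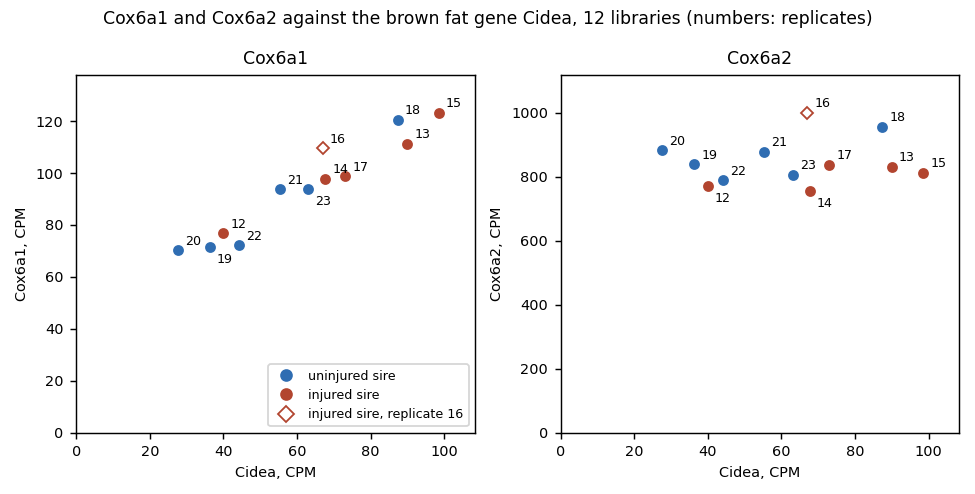
Cox6a1 (left) and Cox6a2 (right) against Cidea in CPM, 1 point for each of the 12 libraries, numbered by replicate, blue for uninjured-sire and red for injured-sire. Cox6a1 runs from 70.2 to 123 CPM along with Cidea in both groups, whereas Cox6a2 shows no such slope. Cidea was picked as the gene most like Cox6a1.

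Airway transcripts also differed between libraries. The secretory gene Scgb1a1 had 18.3 to 251 CPM in the 5 injured-sire libraries, 119 and 158 CPM in uninjured-sire replicates 21 and 18, and at most 1.55 CPM in the other 4 uninjured-sire libraries and 0.215 in replicate 16. The 11 airway and lung markers summed to 41.5 to 635 CPM in the injured-sire and 1.72 to 387 CPM in the uninjured-sire libraries, with up to 6 markers at 0 in one library. All 9 tested were higher in the injured-sire group (median log2 fold change 1.31), and 0 were called (edgeR). A covariate made from these markers thus shifts with group as well. With their mean log2 CPM as a covariate the fitted difference of Cox6a1 was -0.01 (edgeR adjusted p = 0.996), that of Cox7a1 was -0.20 (adjusted p = 0.33) and that of Cox8b -0.18 (adjusted p = 0.538). Cox6a2 was at -0.15 (adjusted p = 0.505) in that fit, so that 3 members had an unadjusted p below 0.05 and 0 were called. Cardiomyocyte markers such as Myh6 and Tnnt2, 12 in all, were abundant in every library, at 90050 to 108300 CPM summed over the list in the 11 libraries compared.

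Cox7a1 is the muscle form of subunit 7a, which sits where the enzyme contacts neighbouring complexes (chromosome 7, 29883569 to 29885503, plus strand). It had 417, 482, 437, 490 and 431 CPM in injured-sire replicates 12, 13, 14, 15 and 17, against 411 to 541 CPM with a median of 474 in the uninjured-sire group. The whole injured-sire range lay inside the uninjured-sire one. The fitted log2 difference was -0.08 (SE 0.0647, adjusted p = 0.771 by edgeR). Its closest likeness over the 12 libraries was the ribosomal protein gene Rplp1 (r = 0.963), followed by the complex IV subunit gene Cox6c (r = 0.959).

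Cox7a2, the widespread 7a form (chromosome 9, 79662643 to 79667160, minus strand), was one of the steadiest members, with a coefficient of variation of 6.03%. It ran from 232 to 261 CPM with a median of 247 in the injured-sire libraries, and from 233 to 274 CPM with a median of 254 in the uninjured-sire libraries. Both groups filled nearly the same range, and the fitted log2 difference was -0.04 (SE 0.0561, adjusted p = 0.908 by edgeR). Its closest likenesses were Atp5mpl, a small ATP synthase subunit gene (r = 0.964), and Cox6b1 (r = 0.956).

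Cox7a2l, the supercomplex factor (chromosome 17, 83809347 to 83824759, minus strand), ran from 95.3 to 117 CPM with a median of 102 in the injured-sire and from 102 to 118 CPM with a median of 111 in the uninjured-sire libraries. Injured-sire replicates 12, 14 and 15 lay at or below the lowest uninjured-sire library, and the fitted log2 difference was -0.07 (SE 0.0605, adjusted p = 0.815 by edgeR). Its level is uncertain, as 17.7% of the 50-base words of its transcript also occur in the processed pseudogene Gm6969 and multi-mapping reads were not counted. Gm6969 itself had 0 counts in the 12 libraries.

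Cox8b is the muscle form of subunit 8, a very small membrane subunit (chromosome 7, 140478858 to 140480359, minus strand). It had 333, 425, 340, 409 and 371 CPM in injured-sire replicates 12, 13, 14, 15 and 17, and 319 to 456 CPM with a median of 378 in the uninjured-sire libraries. Both groups held low and high libraries, and the fitted log2 difference was -0.04 (SE 0.0855, adjusted p = 0.949 by edgeR). The gene most like it was Atp5j2, another ATP synthase subunit gene (r = 0.976), and next the ribosomal protein gene Rpl41 (r = 0.973).

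Cox8a, the widespread partner (chromosome 19, 7192518 to 7194981, minus strand), ran from 89.7 to 104 CPM with a median of 96.1 in the injured-sire libraries. In the uninjured-sire libraries it ran from 82.4 to 109.5 CPM with a median of 92.8. The injured-sire range lay inside the uninjured-sire one, and the fitted log2 difference was 0.04 (SE 0.0718, adjusted p = 0.926 by edgeR). Like Cox6a1 it was higher where the brown fat markers were higher, though less closely: its r with their mean log2 CPM was 0.652 over 12 libraries (Spearman rho 0.615) and 0.366 without the 2 libraries farthest from the median of that score. For Cox6a1 the corresponding values were 0.809, 0.902 and 0.813. The other 7 members had r between -0.12 and 0.441 over 12 libraries. Without replicate 16, r was 0.839 for Cox6a1, 0.738 for Cox8a, 0.557 for Cox8b and 0.537 for Cox4i1, the last up from 0.287, and at most 0.249 for the other 5.

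Cox4i1, the common form of subunit 4 (chromosome 8, 121394961 to 121400946, plus strand), gave the most counts of the 9, 44618 to 73251 in a library. It stood at 1409, 1569, 1407, 1510 and 1570 CPM in injured-sire replicates 12, 13, 14, 15 and 17 and at 1368 to 1628 CPM in the uninjured-sire group. The fitted log2 difference was 0.02 (SE 0.0535, adjusted p = 0.952 by edgeR). The groups coincided. The gene most like it was Ndufb9, a complex I subunit gene (r = 0.978). Emc8 lies on the opposite strand and shares 154 exon bases with it, and counting was by strand.

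Cox4i2 (chromosome 2, 152596093 to 152606957, plus strand) had only 199 to 348 counts in a library, so counting alone gives a coefficient of variation of 6.10%, against the 14.3% observed. Its levels were 5.98, 7.89, 6.83, 7.87 and 6.33 CPM in the injured-sire libraries and 5.91 to 9.28 CPM with a median of 7.57 in the uninjured-sire libraries. Uninjured-sire replicate 23 was the highest and replicate 19 the lowest, both in the same group. The fitted log2 difference of -0.12 (SE 0.135) was not called (edgeR adjusted p = 0.862). The 10 pericyte markers, such as Rgs5 and Kcnj8, were detected in all libraries and summed to 1217 to 1440 CPM in the injured-sire and 1146 to 1407 CPM in the uninjured-sire libraries. The sum hides opposite moves. Of the 10, 1 was higher and 3 were lower at an unadjusted p below 0.05 (edgeR), where 8.96% of all genes stood. None of the pericyte markers was called. The 7 smooth muscle markers did not overlap between groups as a sum, at 1205 to 1296 CPM in the injured-sire and 793.6 to 1148 CPM in the uninjured-sire libraries. In replicate 16 the sum was 1102 CPM, inside the uninjured-sire range. Among single genes, 1.06% of all tested did not overlap between groups. Of the 7 smooth muscle markers, 5 were higher at an unadjusted p below 0.05, against 8.96% of all genes on either side, and 0 were called (edgeR). Their part in the Cox4i2 values was not tested. In bulk tissue, fewer cells of a type and less RNA per cell cannot be told apart. Its closest likenesses, Ahcy (r = 0.836) and Maf (r = 0.834), were weaker than those of any other member.

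Ratios within a library remove the scaling between libraries, and 6 were computed from CPM per kilobase: the 4 pairs and both other 7a forms against Cox7a2l. Their group differences were compared by exact two-sided permutation of the 11 libraries, which can give no p below 0.00433. None of the 6 differences passed, and the groups overlapped for all 6 ratios.

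The 6a pair came nearest to a difference. Cox6a2 exceeded Cox6a1 by 10.35, 7.69, 7.98, 6.80 and 8.76 times in injured-sire replicates 12, 13, 14, 15 and 17. In uninjured-sire replicates 18 to 23 the ratio was 8.18, 12.1, 12.97, 9.66, 11.3 and 8.86. The 3 highest ratios were all uninjured-sire and 3 of the injured-sire libraries had the lowest, but the groups mixed in between. Injured-sire replicates 12 and 17 lay inside the uninjured-sire range, and uninjured-sire replicates 18, 21 and 23 inside the injured-sire range. The mean ratio was 8.32 ± 1.34 (SD, n = 5) against 10.5 ± 1.90 (SD, n = 6), a log2 difference of -0.33 (exact permutation p = 0.0563, adjusted p = 0.338 over the 6 ratios). The libraries with the highest ratios, replicates 19, 20 and 22, were among the 4 lowest in Cidea. Cidea was picked as the gene most like Cox6a1, the denominator, so this follows from that choice and adds no support.

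Cox7a1 exceeded Cox7a2 by 2.94, 3.26, 3.33, 3.50 and 3.10 times in the injured-sire libraries, in the same order of replicates, and by 3.12 to 3.49 times with a median of 3.34 in the uninjured-sire libraries. This was the tightest of the pair ratios, with the highest and lowest of 11 libraries 1.19-fold apart, and the log2 difference between groups was -0.05 (exact permutation p = 0.346, adjusted p = 0.519). The Cox7a2 to Cox7a2l ratio was similarly even, 3.71 ± 0.178 (SD, n = 5) against 3.63 ± 0.313 (SD, n = 6), with an exact permutation p of 0.597. Cox7a1 to Cox7a2l stood at 12.0 ± 1.08 against 12.1 ± 1.17 (SD, the same 5 and 6 libraries, exact permutation p = 0.861).

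Cox8b exceeded Cox8a by 6.39, 7.60, 6.24, 6.76 and 6.16 times in injured-sire replicates 12, 13, 14, 15 and 17, and by 6.66 to 7.27 times with a median of 7.02 in the uninjured-sire libraries. Replicate 13 was the highest and 3 other injured-sire libraries the lowest of the 11. The log2 difference was -0.08 (exact permutation p = 0.182, adjusted p = 0.519). Without replicate 13 it was -0.13 with an exact permutation p of 0.0286, before adjustment.

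Cox4i1 exceeded Cox4i2 by the widest margin of the 4 pairs, by 97.6 to 126 times with a median of 105 in the injured-sire libraries and by 79.3 to 118 times with a median of 102 in the uninjured-sire libraries. The ranges overlapped widely, and the log2 difference was 0.14 (exact permutation p = 0.307, adjusted p = 0.519). As shares of each pair per kilobase over the 11 libraries, Cox6a2 made up 87.2% to 92.8%, Cox8b 86.0% to 88.4%, Cox7a1 74.6% to 77.8% and Cox4i1 98.8% to 99.2%. The size of these ratios depends on the length used. With the longest coding transcript the mean ratio over the 11 libraries was 198 for Cox4i1 to Cox4i2 (105 by exon bases), 7.74 for Cox6a2 to Cox6a1 (9.51), 2.53 for Cox7a1 to Cox7a2 (3.29) and 6.06 for Cox8b to Cox8a (6.82). A change of length multiplies a ratio alike in all libraries and leaves the log2 differences between groups as they are.

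**Figure D4:**
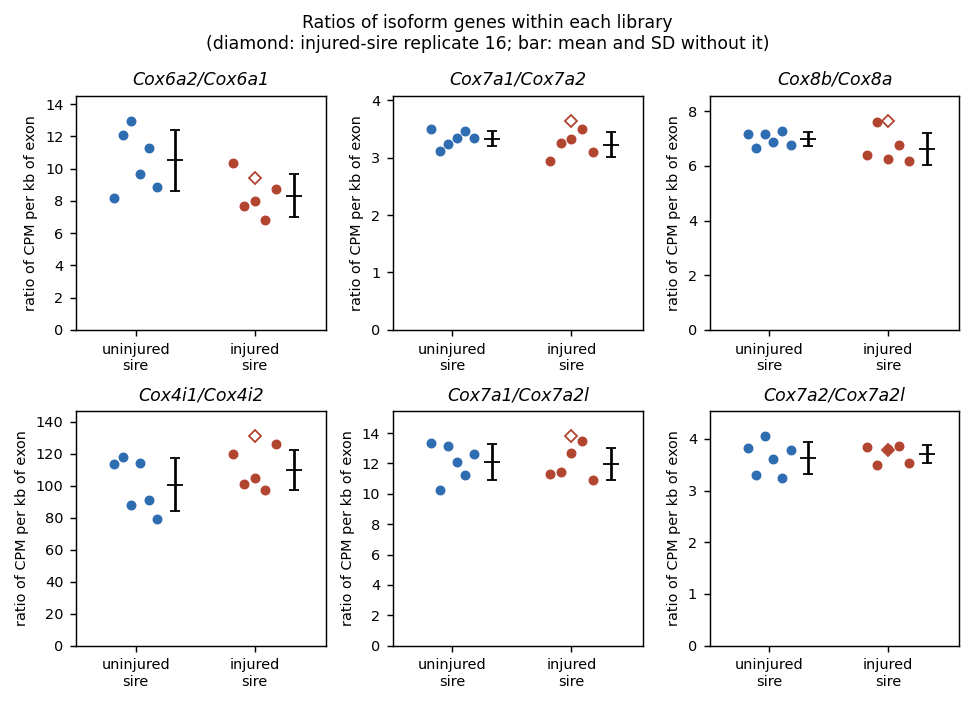
Ratios of CPM per kilobase within each library, uninjured-sire in blue, injured-sire in red and replicate 16 as an open diamond, with the mean and SD without it. Cox6a2, Cox7a1 and Cox8b are above their partners in every library, as is Cox4i1 above Cox4i2, and the Cox6a2 to Cox6a1 ratio spreads most, from 6.80 to 12.97.

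Replicate 16, outside the comparison, had the highest level of 7 of the 9 members, for example 1969 CPM of Cox4i1, 999.5 CPM of Cox6a2, 655 CPM of Cox7a1 and 498 CPM of Cox8b. All 7 other nuclear subunits with more than 100 CPM were highest there too. Of the 6 ratios 4 were highest in it: Cox7a1 to Cox7a2 at 3.64, Cox8b to Cox8a at 7.65, Cox4i1 to Cox4i2 at 131 and Cox7a1 to Cox7a2l at 13.8. Cox6a1, at 110 CPM, and Cox4i2, at 7.66 CPM, lay inside the range of the others. With replicate 16 included the log2 fold changes of Cox7a1, Cox7a2 and Cox8b turned to 0.02, 0.03 and 0.04, and 0 members were called (edgeR adjusted p of 0.984, 0.954 and 0.958).

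The other subunits of complex IV, its assembly factors and regulators of respiratory genes likewise gave no calls. Of 62 tested genes of these lists 0 passed the edgeR test over all genes, where 0.105% of all genes did. An unadjusted p below 0.05 was held by 3 of them (Sco1, Ppargc1b and mt-Co2), against 8.96% of all genes. The DESeq2 Wald test and limma voom called 0 genes of these lists. Of 9 other nuclear subunits tested, 2 were above and 7 below 0 (median log2 fold change -0.02), with Ndufa4 at -0.07 ± 0.0603 (SE) and Cox7b at -0.05 ± 0.0568. Cox6b2, a subunit known from testis, was at 0.23 ± 0.277 with 1.81 against 1.535 CPM. Of 28 assembly factors tested, 14 were above and 14 below 0 (median -0.002). The smallest p among them was that of Sco1, a copper chaperone of the enzyme, at -0.25 ± 0.0863 (edgeR adjusted p = 0.351), followed by Surf1 and Tmem223. Of 22 regulators of respiratory genes, 11 were on either side of 0 (median 0.003): the coactivator gene Ppargc1b was at 0.30 ± 0.0834 with 34.15 ± 4.51 CPM (SD, n = 5) against 27.8 ± 2.07 CPM (SD, n = 6, edgeR adjusted p = 0.2), and Esrrg at -0.16 and Cxxc5 at -0.14 had larger p. Of the mitochondrially encoded core, mt-Co1 stood at 54800 ± 2062 against 57020 ± 4568 CPM, a log2 fold change of -0.06 ± 0.0547. The fitted values of mt-Co2 (-5.00 ± 1.89) and mt-Co3 (-0.67 ± 2.09) come with SDs above the mean within each group, 31.1 ± 50.04 against 49.5 ± 76.7 CPM for mt-Co3 and 0.152 ± 0.189 against 4.72 ± 8.57 CPM for mt-Co2 (SD, n = 5 and 6). Multi-mapping reads were not counted, and the part of this in these values was not tested.

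**Figure D5:**
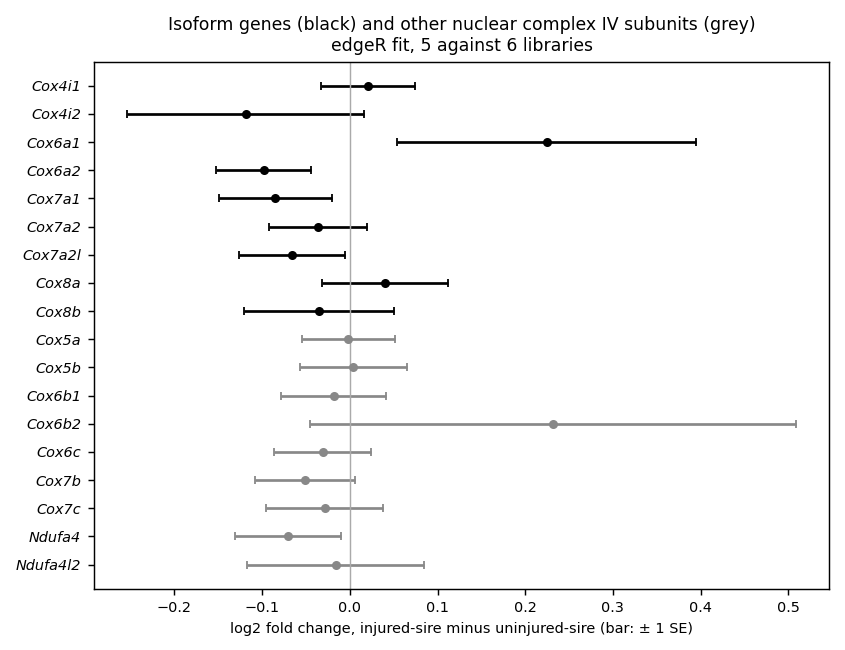
Log2 fold change of injured-sire against uninjured-sire libraries with ± 1 SE for the 9 isoform genes (black) and 9 other nuclear complex IV subunits (grey). All lie between -0.12 and 0.23, and the widest bars belong to Cox6b2, Cox6a1 and Cox4i2.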

How the data were processed

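The deposited table holds raw read counts per Ensembl gene, made by the authors with featureCounts 2.1.1 at strand setting 2, no paired-end option set and multi-mapping reads left uncounted, on Ensembl release 114 of GRCm39, per the file headers. The exon bases per gene are also the authors' deposited column. The submitters' processing notes name STAR 2.7.10a, Subread 2.0.3 and DESeq2 1.44.0. Another 11 sample columns were not used. Symbols came from GENCODE M21, for 51487 of 78317 IDs with 99.3% of counts. Totals ran from 30537315 to 42090257 counts. Genes were filtered by filterByExpr (count 10, total 15) in edgeR 4.0.16 under R 4.3.3, scaled by TMM and tested by quasi-likelihood with robust fitting, Benjamini-Hochberg adjusted over 17130 genes at 0.05. SEs come from the F statistic. Log2 CPM carry a prior count of 2. Alternatives used limma 3.58.1 and DESeq2 1.42.0. On simulated counts for this comparison edgeR recovered 10 of 50 genes set 1.25-fold apart and 37 of 50 set 2-fold apart, with 11 calls among the unchanged genes.

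The members and lists were chosen with earlier results of these data known. Named genes are the 9 members, the 3 genes of smallest p in each complex IV list, the mitochondrially encoded subunits, and the 2 genes most like each member in log2 CPM over 12 libraries. Of the assembly factors, 3 listed symbols were not matched.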

Additional observations from a re-analysis of the deposited data

How the results depend on the processing

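The count of called members and of called other complex IV genes was 0 in every setting run. Outside the covariate fits, an unadjusted edgeR p below 0.05 arose for Cox6a1 without uninjured-sire replicate 18 (0.0326). It also arose for Cox6a2 without uninjured-sire replicate 22 (0.0362) and with no filter on low counts (0.0219). Signs of single members, all uncalled, changed in these settings: with the brown fat score as a covariate Cox4i1 was at -0.0255 and Cox8a at -0.0602. With the airway score Cox4i1 was at -0.0427, Cox6a1 at -0.0089 and Cox8a at -0.0756. With both scores, added after seeing the data, they were at -0.0498, -0.0584 and -0.0954. With all 12 libraries Cox7a1 was at 0.019, Cox7a2 at 0.0298 and Cox8b at 0.0401, and the Cox7a1 to Cox7a2l ratio differed by 0.0193 on the log2 scale (exact permutation p = 0.812). Leaving out 1 library in turn gave -0.0842 to 0.0194 for Cox8b, 0.1441 to 0.3406 for Cox6a1 and -0.0612 to 0.0161 for Cox7a1 to Cox7a2l. It gave -0.4145 to -0.2632 for Cox6a2 to Cox6a1, where the exact permutation p, unadjusted, was 0.019 without injured-sire replicate 12 and 0.0317 without uninjured-sire replicate 18. For Cox8b to Cox8a it gave -0.1287 to -0.0533, with 0.0286 without injured-sire replicate 13. The cause was not tested. With the longest coding transcript as length, levels in CPM per kilobase were 1938 for Cox4i1, 164 for Cox6a1, 962 for Cox7a1, 380 for Cox7a2, 94.97 for Cox7a2l and 174.5 for Cox8a, since those transcripts are shorter than the exon bases counted. The coding length of RefSeq proteins was not run. No paired analysis was possible because no replicate number occurs in both groups. Depth limits mainly Cox4i2, with a counting error of 6.10%.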

Other observations

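Over the 12 libraries the levels of the muscle forms moved with each other more than with Cox6a1 (log2 CPM, Pearson r as a description of libraries that share scaling): Cox7a1 with Cox8b had r = 0.924, Cox6a2 with Cox7a1 0.834 and Cox6a2 with Cox8b 0.75. The muscle forms were not set apart as a group, for they moved as closely with other members. Cox6a2 with Cox7a2 had r = 0.868, Cox8b with Cox8a 0.849 and Cox8b with Cox4i1 0.884. Cox6a2 and its own partner Cox6a1 had r = 0.337. Cox6a1 was instead closest to Cox8a among the members, at 0.857. Without replicate 16, Cox7a1 with Cox8b had r = 0.908, Cox6a2 with Cox7a1 0.696, Cox6a2 with Cox8b 0.599 and Cox6a1 with Cox8a 0.862, while Cox6a1 with Cox8b, at 0.744, was then above Cox6a2 with Cox8b. Cox7a1 with Cox7a2, a pair of partners, had r = 0.912 with replicate 16 and 0.787 without it. Cox4i2 had r = 0.436 with Cox8b and 0.435 with Cox7a1, and 0.459 and 0.541 without replicate 16.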
